A study of Mus musculus with 5 samples.

Results

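Organic anion and cation transporters of the Slc22 family were followed in bulk RNA sequencing of whole mouse kidneys at embryonic day 15.5, through 9 genes named by symbol: Slc22a2, Slc22a4, Slc22a5, Slc22a6, Slc22a8, Slc22a12, Slc22a17, Slc22a18 and Slc22a23. All 9 were among the 32793 genes of the deposited tables, and all 9 passed the filter on low counts that left 15885 genes for testing. The NICD_mut kidneys (2 libraries) had Six2TGC/+, whose Cre recombinase is made in nephron progenitors, and RosaN1ICD∆PEST, an allele from which Cre releases activated Notch1 lacking its PEST domain. The NICD_wt kidneys (3 libraries) were from littermates with RosaN1ICD∆PEST and no Cre driver. The driver is present in 1 group only, so its own effects cannot be told apart from those of activated Notch1. Nothing in the labels ties each library to a separate embryo, and p-values reflect only how far these libraries vary, which may be technical.

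Slc22 proteins sit in the plasma membrane of polarised epithelia and carry small charged molecules. In the kidney they are best known from the proximal tubule, where basolateral members take organic anions and cations from the blood, and apical members or efflux pumps exchange them with the tubule lumen. Slc22a6 and Slc22a8 carry organic anions, Slc22a12 urate, Slc22a2 organic cations, and Slc22a4 and Slc22a5 zwitterions such as ergothioneine and carnitine, while Slc22a17, Slc22a18 and Slc22a23 have no firmly settled substrate.

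Libraries held 17361823 to 21356447 counts. Notch1 was at 288 and 324 CPM (counts scaled to library size) in NICD_mut and 120 to 142 CPM in NICD_wt, and Six2 at 0.328 and 0.296 CPM against 134 to 141 CPM. The 13 listed proximal tubule markers summed to 1987 and 2139 CPM in NICD_mut and 876 to 1075 CPM in NICD_wt, and 9 rose, 2 fell and 2 did not pass. Skeletal muscle markers (8 genes, 0 of which passed) summed to 3349 CPM in NICD_mut 1 and 139 CPM in NICD_wt 1, against 4.40 to 14.2 CPM in the other libraries. In whole-kidney RNA, fewer cells of a type and less RNA per cell cannot be told apart.

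Changes in the 9 transporters were small and went both ways. Slc22a5, Slc22a17, Slc22a18 and Slc22a23 rose in NICD_mut, Slc22a6 fell, and Slc22a2, Slc22a4, Slc22a8 and Slc22a12 did not pass (edgeR's quasi-likelihood test, p-values adjusted by Benjamini and Hochberg, BH, under 0.05). Thus 4 of 9 were higher, where 23.0% of all tested genes were, and 1 of 9 was lower, where 24.8% were; 47.7% of tested genes passed in either direction. The median log2 change was 0.24 over the 9, the value of Slc22a12, and 0.01 over all tested genes. Without NICD_mut 1 the median of the 9 was 0.10, against -0.02 over all tested genes. Without NICD_mut 1 and NICD_wt 1, left out after seeing the data, it was 0.01 against -0.01, so the median of the 9 depends on the libraries. Without NICD_wt 3, 2 of 9 were higher and 0 lower, and without NICD_wt 2, 3 were higher and 0 lower. Without NICD_mut 1, 1 was again lower, but it was Slc22a2 and not Slc22a6. None of the 9 changed 2-fold, and 0 of 9 passed a test against a minimum fold of 1.5. In CPM, 4 members had every NICD_mut library above every NICD_wt library and 2 had the reverse, so 6 of 9 did not overlap; over all tested genes 67.2% did not overlap (32.9% above and 34.2% below).

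**Figure D1:**
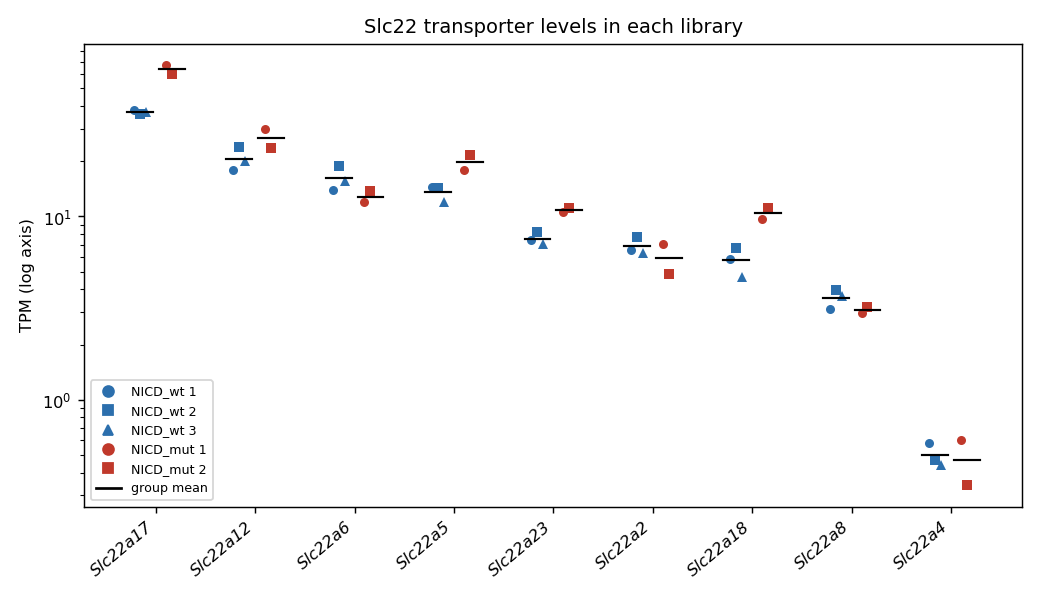
TPM (length-corrected transcript abundance, log axis) of the 9 transporters in each library; blue points are the 3 NICD_wt libraries, red points the 2 NICD_mut libraries and black lines the group means. Slc22a17 is highest in every library and Slc22a4 lowest, and both NICD_mut points lie above all NICD_wt points for Slc22a17, Slc22a5, Slc22a23 and Slc22a18.

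TPM set the order of the genes. In NICD_wt the mean TPM was 37.2 ± 0.911 (SD, n = 3) for Slc22a17, 20.7 ± 2.92 for Slc22a12, 16.2 ± 2.50 for Slc22a6, 13.6 ± 1.41 for Slc22a5, 7.58 ± 0.564 for Slc22a23, 6.87 ± 0.766 for Slc22a2, 5.75 ± 1.03 for Slc22a18, 3.59 ± 0.426 for Slc22a8 and 0.497 ± 0.0737 for Slc22a4. The library ranges overlapped between the neighbours Slc22a12 and Slc22a6, Slc22a6 and Slc22a5, Slc22a23 and Slc22a2, and Slc22a2 and Slc22a18, so those pairs were not separated. In NICD_mut the mean was 19.9 ± 2.62 TPM (SD, n = 2) for Slc22a5 and 12.8 ± 1.22 TPM for Slc22a6, and their library ranges did not overlap there. Slc22a18 (10.5 ± 1.03 TPM) stood above Slc22a2 (5.95 ± 1.56 TPM) in NICD_mut, and only Slc22a23 and Slc22a18 overlapped there as neighbours.

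The 25 Slc22 genes in the tables summed to 216 and 198 TPM in NICD_mut and 137 to 157 TPM in NICD_wt. The 9 transporters made up 73.0 and 75.6% of that sum in NICD_mut and 76.8 to 79.1% in NICD_wt. The Slc22a6 share was 5.53 and 6.93% against 10.2 to 12.04%, below NICD_wt in both libraries. Its own TPM was 11.97 and 13.7 in NICD_mut and 13.97 to 18.88 in NICD_wt. Part of the lower share therefore comes from the larger family sum. The Slc22a17 share was 31.03 and 30.3% against 23.1 to 27.8%, above NICD_wt in both.

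The organic anion transporters Slc22a6 and Slc22a8 lie side by side on the plus strand of chromosome 19 (mm10, GENCODE M21), Slc22a8 at 8591254 to 8611835 and Slc22a6 at 8618039 to 8628299, 6203 bases apart. The promoter of Slc22a6 is shown because it and that of Slc22a17, printed further on, are the 2 of the 9 that hold TGGGAA, the core of the site for RBPJ, the DNA-binding partner of activated Notch. The sequence is from RefSeq (GRCm38.p6), from 250 bases before to 50 after the RefSeq start, plus strand, 5′ to 3′, at chr19:8617746-8618045. Capitals mark TTCCCA, the reverse complement of TGGGAA.
Slc22a6 promoter: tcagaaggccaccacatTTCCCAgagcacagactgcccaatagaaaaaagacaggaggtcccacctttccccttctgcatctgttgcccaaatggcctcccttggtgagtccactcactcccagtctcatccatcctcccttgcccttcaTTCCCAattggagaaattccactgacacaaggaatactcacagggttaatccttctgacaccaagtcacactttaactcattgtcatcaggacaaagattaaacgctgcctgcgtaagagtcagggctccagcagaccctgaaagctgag
The matches begin 233 and 100 bases before the start of Slc22a6. Searched on both strands, TGGGAA occurs in 25.6% of 32851 RefSeq windows of this length. AGGTCA, a core of nuclear receptor sites, and TATAAA occur in 16.3% and 13.6% of windows and in 0 of the 9. A match describes letters, not binding.

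Slc22a6, which takes organic anions such as para-aminohippurate from the blood, was the only transporter of the 9 to fall. It was at 26.3 and 31.5 CPM in NICD_mut 1 and 2, and at 34.1, 46.3 and 38.1 CPM in NICD_wt 1, 2 and 3. Both NICD_mut libraries lay below all NICD_wt libraries, and NICD_wt 2 was the highest. The log2 change was -0.45 (SE 0.14; edgeR, BH-adjusted p = 0.0313), or 1.37-fold lower. The call was lost without NICD_mut 1 (-0.33, adjusted p = 0.136), without NICD_wt 2 (-0.32, 0.0852), without NICD_wt 3 (-0.48, 0.0767) and by limma on log2(TPM + 1) (-0.30, 0.150).

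Slc22a8, a basolateral anion transporter whose substrates overlap those of Slc22a6, did not pass. It was at 5.30 and 5.92 CPM in NICD_mut and 6.19, 7.86 and 7.25 CPM in NICD_wt. The groups did not overlap in CPM but did in TPM, where NICD_mut 2 (3.19) was above NICD_wt 1 (3.13). Its fitted log2 change was -0.34 (95% interval -0.79 to 0.11; edgeR, BH-adjusted p = 0.193). The TPM ratio of Slc22a8 to Slc22a6 was 0.249 and 0.233 in NICD_mut and 0.210 to 0.235 in NICD_wt, which overlapped (exact two-sided permutation test, p = 0.4).

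Slc22a12, the apical exchanger that recovers urate from the lumen, is on chromosome 19 (6535845 to 6543032, minus strand) and overlaps Nrxn2 on the other strand. The strand setting of the counting is unknown here, so reads of this pair may be mixed; Nrxn2 was at 20.1 and 16.03 CPM in NICD_mut and 16.96 to 18.2 CPM in NICD_wt. Slc22a12 was at 34.2 and 28.4 CPM in NICD_mut and 23.4, 30.04 and 26.1 CPM in NICD_wt, so NICD_mut 2 fell inside the NICD_wt range. The log2 change of 0.24 (95% interval -0.05 to 0.53) did not pass (edgeR, BH-adjusted p = 0.158). Without NICD_mut 2 it was 0.36 and passed (adjusted p = 0.0426), with the lone NICD_mut library assumed to vary like the others, and without NICD_mut 1 it was 0.10.

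Ratios within each library compared urate, carnitine and anion transporters. The TPM ratio of Slc22a12 to Slc22a6 was 2.49 and 1.72 in NICD_mut and 1.26 to 1.29 in NICD_wt. The ratio of Slc22a12 to Slc22a8 was 10.02 and 7.39 against 5.50 to 6.0, and that of Slc22a5 to Slc22a6 was 1.505 and 1.58 against 0.755 to 1.04. In all 3, both NICD_mut libraries were above every NICD_wt library. Each gave p = 0.2 in an exact two-sided permutation test, the smallest value that 2 libraries against 3 can give, and 0.25 after BH adjustment over the 5 ratios computed.

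Slc22a2, the basolateral uptake transporter for organic cations, is on chromosome 17 (12584132 to 12628488, plus strand). It was at 7.74 and 5.52 CPM in NICD_mut and 8.004, 9.40 and 7.71 CPM in NICD_wt, and NICD_mut 1 lay within the NICD_wt range. This gave a log2 change of -0.34 (95% interval -0.81 to 0.13; edgeR, BH-adjusted p = 0.213). Without NICD_mut 1 it was -0.60 and passed (adjusted p = 0.0488), again with a lone NICD_mut library, and without NICD_mut 2 it was -0.12.

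Of the zwitterion carriers, Slc22a5 rose and Slc22a4 did not pass. Slc22a5, the high-affinity carnitine transporter, is on chromosome 11 (53864542 to 53891660, minus strand). It was at 29.9 and 37.6 CPM in NICD_mut and 26.9, 26.3 and 22.1 CPM in NICD_wt, with NICD_mut 2 the highest and no overlap. The log2 change was 0.42 (SE 0.13; edgeR, BH-adjusted p = 0.0240). The call was lost without NICD_mut 2 (0.24, adjusted p = 0.154), NICD_wt 2 (0.46, 0.0556) or NICD_wt 3 (0.34, 0.0944). Slc22a4, the ergothioneine transporter (chromosome 11, 53983123 to 54028090, minus strand), gave 15 and 8 counts in the NICD_mut libraries and 15, 13 and 10 in NICD_wt, which overlap. At this depth the 95% interval ran from -1.5 to 1.04 around a log2 change of -0.23, so a 2-fold change in either direction was not excluded.

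Slc22a17, described as a receptor for lipocalin-bound iron, had the smallest adjusted p of the 9. It lies on chromosome 14 (54906304 to 54913132, minus strand). It was at 80.1 and 71.9 CPM in NICD_mut and 46.1, 46.4 and 47.99 CPM in NICD_wt, so the lower NICD_mut library was far above the highest NICD_wt library. The log2 change was 0.70 (SE 0.07; edgeR, BH-adjusted p = 9.07e-05), or 1.62-fold, and it passed without each library in turn (0.62 to 0.77). Its promoter is shown because, of the 4 transporters that rose, it is the one whose window holds TGGGAA (capitals), beginning 26 bases before the RefSeq start (chr14:54913083-54913382, GRCm38.p6, minus strand, 5′ to 3′).
Slc22a17 promoter: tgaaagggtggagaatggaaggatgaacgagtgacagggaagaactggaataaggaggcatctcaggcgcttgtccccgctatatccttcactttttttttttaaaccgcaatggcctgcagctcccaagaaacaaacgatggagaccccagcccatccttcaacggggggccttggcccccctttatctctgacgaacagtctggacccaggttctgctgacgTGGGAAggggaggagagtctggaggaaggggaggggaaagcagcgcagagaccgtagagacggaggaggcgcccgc
TGGGAA occurs in 25.6% of all windows and in 2 of the 9, the other being Slc22a6, which fell. The core alone therefore does not tell Slc22a17 from Slc22a6. Letters beside the core differ between these promoters and were not searched, and a link to Notch was not tested. Slc22a17 is also expressed in the nervous system, so nerve markers were read beside it. Of 8 neuron markers 7 were tested, 4 rose, 1 fell (Elavl4, at 0.657 and 1.04 CPM against 6.88 to 8.98 CPM) and 2 did not pass. Of those that rose, Th reached the filter's cutoff in no NICD_wt library, and Elavl3 and Prph in 1 each. The filter needs 2 libraries, so these genes passed it only with NICD_mut, and their rise supports nothing. The list summed to 27.8 and 17.1 CPM in NICD_mut and 14.2 to 17.2 CPM in NICD_wt. Peripheral glia markers summed to 25.6 and 17.2 CPM against 5.01 to 7.58 CPM, and 5 of 6 rose. Among these, S100b likewise reached the cutoff in 1 NICD_wt library. The part of nerve and glia markers in the Slc22a17 result was not tested.

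Slc22a18 and Slc22a23, transporter-like proteins, rose as well. Slc22a18, an imprinted gene expressed from the maternal allele, is on chromosome 7 (143473736 to 143499334, plus strand). It was at 6.99 and 8.34 CPM in NICD_mut and 4.73, 5.33 and 3.62 CPM in NICD_wt, without overlap. The log2 change was 0.74 (SE 0.23; edgeR, BH-adjusted p = 0.0250), and the call was lost without NICD_mut 2 (0.60, adjusted p = 0.0919), NICD_wt 1 (0.77, 0.0600) or NICD_wt 3 (0.60, 0.0813). Slc22a23 (chromosome 13, 34179158 to 34345182, minus strand) was at 33.8 and 37.1 CPM in NICD_mut and 26.2, 29.01 and 25.7 CPM in NICD_wt, again without overlap. Its fitted change was 0.39 log2 (SE 0.10; edgeR, BH-adjusted p = 0.00918), and it passed without each library in turn (0.31 to 0.46).

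**Figure D2:**
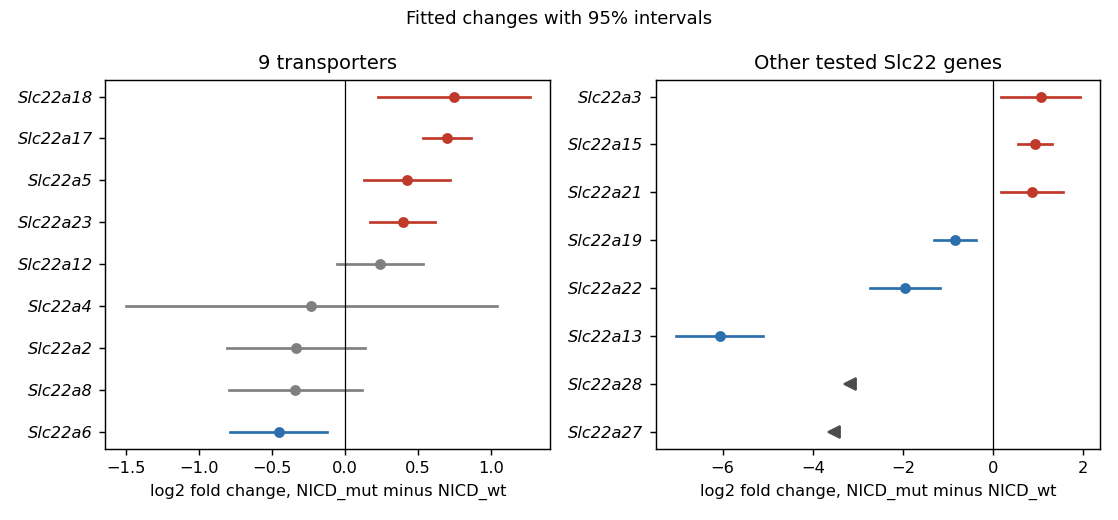
Fitted log2 fold changes (NICD_mut minus NICD_wt) with 95% intervals for the 9 transporters (left) and for 8 other tested Slc22 genes (right, wider axis); red passed and higher, blue passed and lower, grey not passed, and arrowheads are upper limits for genes with no count in NICD_mut. The 9 transporters lie between -0.45 and 0.74, while Slc22a3 reaches 1.05 and Slc22a13 -6.07.

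The TPM scale was shifted upward as a whole: the median log2(TPM + 1) change of all tested genes was 0.11, and 62.7% of genes called by limma on it were higher, against 48.1% by edgeR on counts. Relative to that median the change was 0.66 for Slc22a18, 0.64 for Slc22a17, 0.40 for Slc22a5, 0.36 for Slc22a23, 0.24 for Slc22a12, -0.14 for Slc22a4, -0.28 for Slc22a8, -0.31 for Slc22a2 and -0.41 for Slc22a6. Each of the 9 had the same sign on this scale and in counts.

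**Figure D3:**
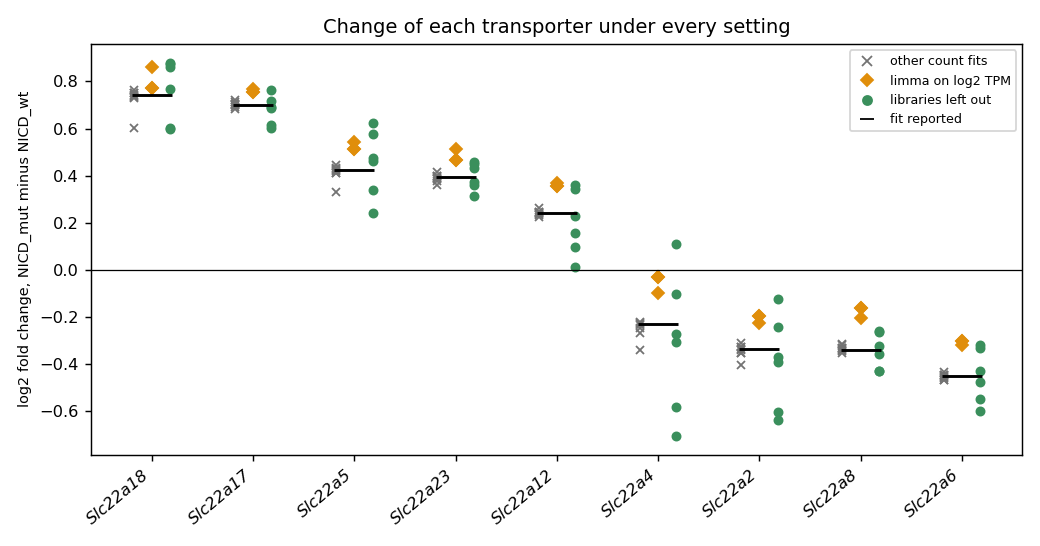
Log2 fold change of each of the 9 transporters in the fit reported (black bar), in other fits on counts (grey crosses), in limma fits on log2 TPM (orange diamonds) and with libraries left out (green points). Slc22a4 crosses 0, at 0.11 without NICD_mut 2, and Slc22a12 comes down to 0.01 without NICD_mut 1 and NICD_wt 1.

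Genes of the family that neighbour the 9 were read beside them. On chromosome 17, Slc22a3, another organic cation transporter, lies 76427 bases from Slc22a2 and overlaps Plg on the other strand. It was at 2.96 and 2.96 CPM in NICD_mut and 0.906, 1.97 and 1.38 CPM in NICD_wt (log2 change 1.05, SE 0.39; edgeR, BH-adjusted p = 0.0496), a call lost without any 1 library except NICD_wt 2 (adjusted p of 0.0993 to 0.124).

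On chromosome 11, Slc22a21 lies 2790 bases from Slc22a4 and was named for its place after its values were seen. It was at 5.82 and 3.50 CPM in NICD_mut and 2.77, 2.67 and 2.19 CPM in NICD_wt (log2 change 0.87, SE 0.30; edgeR, BH-adjusted p = 0.0406). Without NICD_mut 1 it was 0.46 (adjusted p = 0.339), and without any 1 NICD_wt library it did not pass either (0.0744 to 0.121). Slc22a4, Slc22a5 and Slc22a21 are paralogs whose shared reads the estimation could split.

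**Figure D4:**
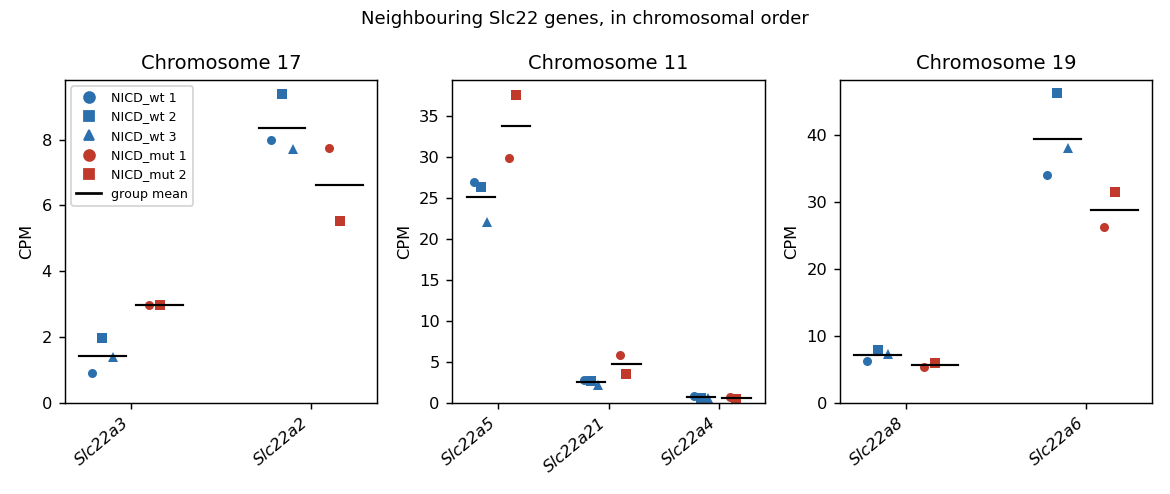
CPM (linear axes from 0) of Slc22 genes that neighbour each other, in chromosomal order, for each library (blue NICD_wt, red NICD_mut, black lines group means). On chromosome 17, Slc22a3 is at 2.96 and 2.96 CPM in NICD_mut, and Slc22a2 lies between 5.52 and 9.40 CPM in all 5 libraries.

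Of the 16 other Slc22 genes listed, 9 passed the count filter, and of these 4 rose and 5 fell. Slc22a13, Slc22a27 and Slc22a28 passed the filter only through NICD_wt and so had to differ, and the count of 5 supports nothing; of the remaining 6, 4 rose and 2 fell. Slc22a13, an organic anion transporter, gave 1 and 3 counts in NICD_mut and 133, 144 and 126 in NICD_wt (fitted log2 change -6.07, SE 0.43). The fitted change was -5.48 without NICD_mut 1 and -7.03 without NICD_mut 2, and the Slc22a14 gene model overlaps it on the same strand. Slc22a22, a prostaglandin transporter, was at 0.750 and 1.08 CPM against 3.73, 3.70 and 3.34 CPM (log2 change -1.96, SE 0.34). Slc22a15 was at 12.9 and 11.8 CPM against 5.69, 6.78 and 7.08 CPM (0.92, SE 0.17). Slc22a27 and Slc22a28, similar copies whose single values are uncertain, had 0 counts in NICD_mut. Taking 3 counts over the group as the limit for counting error, they were at least 11.5-fold and 9.10-fold lower there.

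Partner transporters of organic ions also went both ways. Of 23 listed, 22 were tested, 10 rose, 6 fell and 6 did not pass, with a median of 0.41 log2. Among those that fell, Slco4c1 passed the filter only through NICD_wt and so had to differ. Slc13a3, given further on, reached the cutoff in 1 NICD_mut library, too few to pass there. The sodium-coupled monocarboxylate transporters moved apart. Slc5a8 was at 2.25 and 3.06 CPM in NICD_mut and 22.7, 28.7 and 29.4 CPM in NICD_wt (-3.34 log2, SE 0.20), and Slc5a12 at 16.7 and 16.6 CPM and 5.49, 5.15 and 4.89 CPM (1.69 log2, SE 0.15). Slco4c1, a basolateral carrier of organic anions, gave 4 and 2 counts against 134, 142 and 115 (-5.47 log2, SE 0.37). Slco3a1 changed by -1.31 log2 (SE 0.12), and the efflux pumps Abcc3 and Abcc5 rose by 1.45 (SE 0.17) and 0.78 log2 (SE 0.09). All of these but Slco4c1 and Slc13a3, for which the test supports nothing, passed without each library in turn.

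Further partners were chosen for their known roles after their values were seen. Slc13a3, the dicarboxylate transporter that feeds exchange by Slc22a6 and Slc22a8, gave 15 and 6 counts against 91, 72 and 101 (-3.17 log2, SE 0.46). The change was -3.92 without NICD_mut 1 and -2.70 without NICD_mut 2. Slc13a3 reached the filter's cutoff in 1 NICD_mut library, so it passed only through NICD_wt and its call supports nothing. Slc47a1, the apical exit for cations taken up by Slc22a2, rose by 0.43 log2 (SE 0.08). Abcg2, an apical urate pump, rose by 0.39 (SE 0.07), and Pdzk1, the scaffold that binds Slc22a12, by 0.46 (SE 0.08). Slc17a1, an apical urate and phosphate carrier, changed by -1.15 log2 (SE 0.25). Slc2a9, a urate carrier, was at 5.35 and 6.71 CPM against 4.73, 3.65 and 3.17 CPM and did not pass (0.64 log2; edgeR, BH-adjusted p = 0.0660); it passed without NICD_mut 1 (0.80, 0.0423) and without NICD_wt 1 (0.82, 0.0487).

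**Figure D5:**
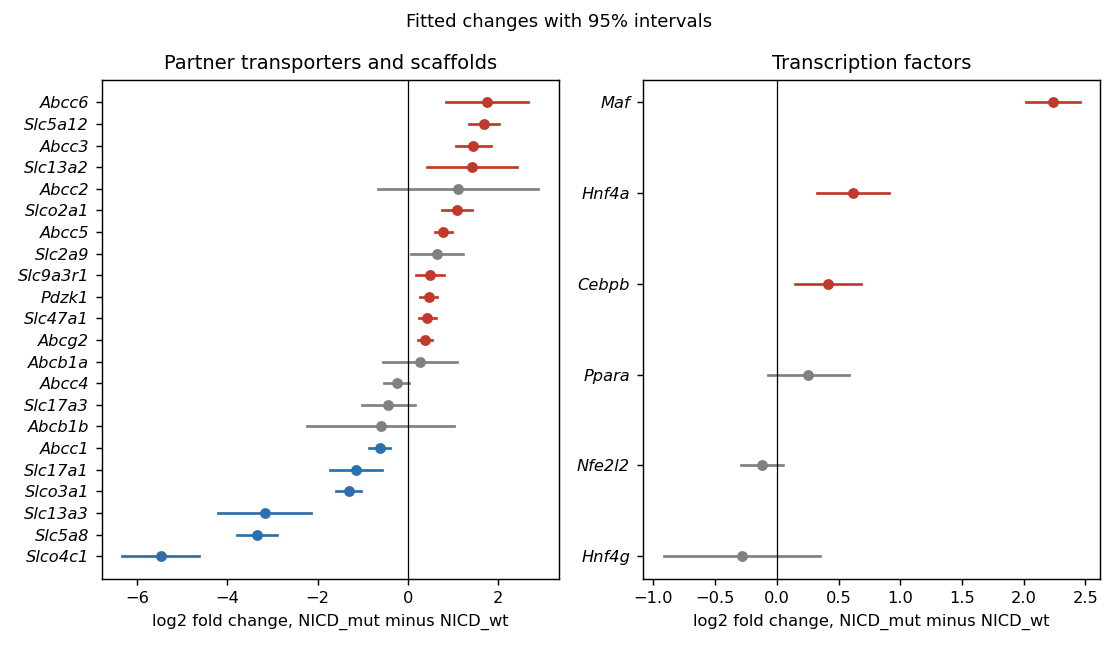
Fitted log2 fold changes (NICD_mut minus NICD_wt) with 95% intervals for 22 tested partner transporters and scaffolds (left) and 6 transcription factors (right); red passed and higher, blue passed and lower, grey not passed. Partner genes span -5.47 for Slco4c1 to 1.76 for Abcc6, and Maf is highest among the factors at 2.24.

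Of 8 transcription factors known from proximal tubule transport genes, 4 rose, 1 fell and 3 did not pass (median 0.34 log2). Maf was at 216 and 266 CPM in NICD_mut and 54.2, 49.3 and 49.7 CPM in NICD_wt (2.24 log2, SE 0.09). Hnf4a, a nuclear receptor of the proximal tubule, was at 236 and 309 CPM against 167, 192 and 172 CPM (0.62 log2, SE 0.12; 0.40 without NICD_mut 2). Cebpb rose by 0.42 log2 (SE 0.12), a call lost without NICD_mut 2 or NICD_wt 1 (adjusted p of 0.0524 and 0.0627).

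Of 4 genes of lipocalin uptake, the function proposed for Slc22a17, 1 rose, 2 fell and 1 did not pass, but 1 of the 2 that fell, Lcn2, passed the filter only through NICD_wt and had to differ. Lcn2, the ligand, gave 7 and 5 counts in NICD_mut and 40, 32 and 28 in NICD_wt (fitted change -2.54 log2, SE 0.50), and was not tested with at least 50 counts in 2 samples, where 1 gene of the list fell. Amn, a partner of the endocytic receptor cubilin, rose by 0.90 log2 (SE 0.14). Cubn itself was at 10.7 and 9.08 CPM against 14.2, 24.1 and 15.8 CPM (-0.87 log2; edgeR, BH-adjusted p = 0.0213), a call lost without NICD_mut 1 or NICD_mut 2 (adjusted p of 0.0709 and 0.140). Lrp2, the endocytic receptor megalin, was at 139 and 142 CPM against 74.3, 115 and 79.1 CPM and did not pass (0.65 log2; edgeR, BH-adjusted p = 0.0754). Without NICD_wt 2 it was 0.88 and passed (adjusted p = 0.000283), as it did by DESeq2 (0.0317).

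Markers of other cell types that could carry these transcripts differed too, and their part in the results was not tested. Liver markers, of which 2 of 7 tested rose, summed to 140 and 141 CPM in NICD_mut and 58.2 to 98.4 CPM in NICD_wt. Among them Fgb was at 50.8 and 60.3 CPM against 2.13 to 3.02 CPM, while Alb, the defining liver gene, gave 443 and 137 counts against 239, 514 and 78 and overlapped. Endothelial markers (6 of 6 rose) summed to 856 and 941 CPM against 521 to 568 CPM, and leukocyte markers (5 of 6 rose) to 140 and 140 CPM against 51.9 to 57.3 CPM. Podocyte markers (7 of 8 rose and 1 fell) summed to 1646 and 2334 CPM against 975 to 1020 CPM. Erythroid markers (4 of 5 tested rose) summed to 10170 and 11330 CPM against 4479 to 5779 CPM. Ureteric bud and collecting duct markers summed to 75.7 and 70.5 CPM against 317 to 356 CPM. Of these, 7 of 7 fell. Foxi1 reached the filter's cutoff in no NICD_mut library and Aqp2 in 1, so both passed only through NICD_wt. Stromal markers (3 of 7 rose and 1 fell) summed to 10950 and 5465 CPM against 2866 to 3634 CPM. Most of that sum was Col1a1 (4562 and 1815 CPM in NICD_mut) and Col3a1 (5325 and 2625 CPM), neither of which passed. Foxd1, Pdgfra and Pdgfrb rose by 0.38, 0.78 and 1.19 log2, and Penk fell. Loop of Henle and distal tubule markers (8 of 8 fell) summed to 8.54 and 7.84 CPM against 444 to 521 CPM. Among them, 4 reached the cutoff in no NICD_mut library, and Slc12a1 and Irx2 in 1 each, so these passed only through NICD_wt. Nephron progenitor markers (6 of 7 fell, 1 of which, Six2, passed only through NICD_wt) summed to 71.2 and 39.9 CPM against 625 to 645 CPM.

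The genes nearest in pattern to each transporter were taken by Euclidean distance of centred log2 CPM over the 5 libraries. Those nearest to Slc22a17 were Zfp57, Notum and Taok3 (distances of 0.047 to 0.053), and to Slc22a23 Cltb, Mapk3 and Ttc17 (0.016 to 0.036). Slc22a5 was nearest to Gucy1a2, Scpep1 and AK163758 (0.087 to 0.10), and Slc22a18 to Frg2f1, Fam13c and Rilpl2 (0.062 to 0.14). Slc22a6 was nearest to Gm5088, Slc16a7 and Gnal (0.092 to 0.13), and Slc22a8 to Mocs3, Aldh1a7 and Pdlim2 (0.071 to 0.089). Slc22a2 was nearest to Apold1, Sh2b2 and Comtd1, Slc22a4 to AK155239, Il20rb and Armcx5 and Slc22a12 to Slc2a10, Neil1 and Dip2c. With 5 libraries such likeness is loose: 47 genes lay within 0.3 of Slc22a4 and 1722 within 0.3 of Slc22a23.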

How the data were processed

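RNA of 5 whole kidneys' libraries was read from 2 tables that the authors deposited, one of RSEM estimated counts and one of TPM, both by gene symbol. The deposited counts are whole numbers and the deposited TPM corrects for transcript length. Per the submitters' processing notes, Bowtie2, RSEM and mm10 were used; versions, annotation and strand setting are not known here. RSEM divides shared reads, so close paralogs are uncertain singly.

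Counts were scaled by TMM (0.9964 to 1.005), filtered by filterByExpr (minimum count 10, minimum total 15) and tested with edgeR 4.0.16 (quasi-likelihood, robust) in R 4.3.3, NICD_mut against NICD_wt with no covariate, with BH adjustment over 15885 genes at 0.05. Alternatives were DESeq2 1.42.0, limma 3.58.1 (voom, and log2 TPM with pseudocounts of 1 and 0.1), other scalings and filters, a replicate block, a minimum fold of 1.5 and each library left out. The test was also run on simulated counts in which far fewer genes changed than the 47.7% called here. That setting differs from these data, so the run does not vouch for the calls.

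Members and lists were chosen with earlier results of these data known. Named genes were the 9 members and up to 6 genes per list with the smallest adjusted p. Any gene alone in its list's direction and the 3 nearest in pattern were named too. Slc22a21, other partners and Lrp2 were chosen after values were seen. So were genes given beside a member or list (Nrxn2, Abcc6, Fgb, Alb, Elavl3, Elavl4, Th, Prph, S100b, Foxi1, Aqp2, Slc12a1, Irx2, Cdkn1c). RefSeq promoters matched all 9 members by symbol. Some results that the rule would name are not reported here.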

Additional observations from a re-analysis of the deposited data

How the results depend on the processing

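By limma on TPM, 0 of the 9 transporters were lower, and over all genes 2553 were lower with a pseudocount of 1, 2392 with 0.1 and 2373 with no filter, against 3934 in counts. Against a minimum fold of 1.5, 0 of 9 were higher and 0 lower, and 998 and 697 of all genes. With each library left out in turn, 2 to 4 transporters were higher and 0 to 1 lower, and of all genes 2797 to 3843 were higher and 3101 to 4207 lower. Slc22a4 ranged from -0.71 without NICD_mut 1 to 0.11 without NICD_mut 2 and passed in neither; its 8 to 15 counts per library limit it. The cause of these shifts was not tested. Without NICD_mut 1 and NICD_wt 1, chosen after seeing the data, 4 transporters were higher and 1 lower.

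The labels number the replicates but state no pairing. Deviations from the group means correlated at 0.340 and 0.149 for same-numbered libraries and at -0.340 to 0.234 for differently numbered ones. With 2 NICD_mut libraries the deviations of 1 are those of the other with the sign reversed. These correlations are therefore not separate values and cannot decide whether the numbers pair the libraries. With the replicate block, 2 transporters were higher (Slc22a17 and Slc22a23) and 1 lower, and 2654 of all genes were higher and 2881 lower. Slc22a5 and Slc22a18 were at 0.33 and 0.60 log2 with the block (edgeR adjusted p = 0.105 and 0.114).

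Over the 51 genes fitted singly and 17 alternatives, 745 values kept direction and call, 103 lost a call, 14 gained one and 1 changed direction.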

Other observations

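The carnitine pathway that Slc22a5 supplies was mixed: of 10 listed genes 9 were tested, 4 rose, 2 fell and 3 did not pass, with a median of 0.16 log2. Cpt1a and Cpt2, the outer and inner mitochondrial carnitine palmitoyltransferases, rose by 0.73 (SE 0.08) and 0.76 log2 (SE 0.12) and passed without each library in turn. Cpt1c rose by 0.54 (SE 0.16), a call lost without NICD_mut 1 or NICD_wt 3 (edgeR adjusted p = 0.0983 and 0.0683). Aldh9a1, of carnitine synthesis, rose by 0.24 (SE 0.08), a call lost without NICD_mut 2 (0.16), NICD_wt 1 (0.21) or NICD_wt 2 (0.22). Crot, the peroxisomal enzyme, changed by -0.47 log2 (SE 0.08). Cpt1b, the muscle form, was at 5.82 and 2.37 CPM in NICD_mut and 9.01, 7.34 and 9.38 CPM in NICD_wt (-1.06 log2; edgeR adjusted p = 0.0467). It was -1.85 without NICD_mut 1 and -0.57 without NICD_mut 2. Without NICD_mut 1 and NICD_wt 1, the libraries with most muscle transcripts, it was -1.82. Its call was lost without NICD_mut 2, and without any 1 NICD_wt library (edgeR adjusted p of 0.0838 to 0.126). The part of muscle transcripts in the Cpt1b change was not tested.

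Genes around a pair of the transporters were read by place. Near Slc22a18 on chromosome 7, 7 of 8 listed genes were tested: Cd81 rose by 0.51 log2 (SE 0.06), while Nap1l4, Tssc4 and Kcnq1 changed by -0.39 (SE 0.06), -0.33 (SE 0.08) and -0.96 (SE 0.24), and 3 did not pass. Cdkn1c, the imprinted cell cycle inhibitor beside Slc22a18, was among those 3, at 1347 and 1011 CPM in NICD_mut and 969 to 1036 CPM in NICD_wt. Near Slc22a2 on chromosome 17, 5 genes were tested and 3 rose, Slc22a3 and Igf2r among them. Igf2r was at 467 and 328 CPM against 210, 224 and 167 CPM (0.99 log2, SE 0.21), a call lost without NICD_mut 1 (0.71, adjusted p = 0.0850) or NICD_wt 1 (1.02, 0.0562); its antisense transcript Airn overlaps it, and reads of the pair may be mixed.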
